A study of Mus musculus with 14 samples.

Results

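This account covers 10 genes of the machinery that methylates and assembles the protein core of spliceosomal particles: Prmt5, its partners Wdr77 and Clns1a, and the 7 Sm protein genes Snrpb, Snrpd1, Snrpd2, Snrpd3, Snrpe, Snrpf and Snrpg. They were taken from the count table by gene name, and all 10 were found among its 53465 genes. No measured value enters the choice of names. The set was nevertheless put forward with results of these libraries in view, so the counts and medians below describe the set and are not independent evidence about it.

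PRMT5 is an arginine methyltransferase that, with its obligate partner WDR77 (also called MEP50), forms the core of the methylosome. CLNS1A, also called pICln, is the adaptor that brings Sm proteins to this enzyme, which places symmetric dimethyl groups on arginines in the tails of the SmB, SmD1 and SmD3 proteins (from Snrpb, Snrpd1 and Snrpd3). The SMN complex then assembles the Sm proteins into a ring of 7 around the small nuclear RNAs that carry out splicing. PRMT5 takes its methyl groups from S-adenosylmethionine (SAM).

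RNA was sequenced from KL974, a mouse acute myeloid leukemia (AML) line, to see what follows from loss of Ogdh, the E1 subunit of the 2-oxoglutarate dehydrogenase complex of the tricarboxylic acid cycle. All 14 libraries share the genotype Trp53R172H, shMll3 and shNf1 (mutant Trp53 with hairpins against Mll3 and Nf1), growth in IL3, IL6 and SCF, and a lentiviral hairpin that doxycycline induces together with blue fluorescent protein (BFP). There were 7 groups of 2 libraries: control hairpin (shRen713) cells at day 0, untreated; control BFP negative (not induced) and BFP positive (induced) sorted cells after 2 and after 4 days of doxycycline; and BFP positive cells with shOgdh346 or shOgdh2081 after 4 days. A comparison with day 0 thus combines time and doxycycline, and perhaps sorting, which the labels do not name for day 0. Whether the 2 libraries of a group came from separate cultures is not stated in the labels. The p-values therefore reflect only library-to-library spread, which may be technical, and the results concern 1 cell line.

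Libraries held 913482 to 10271698 counts, with an Ogdh library the shallowest, and 10791 genes passed the filter on low counts, the 10 members among them. Levels are counts-per-million (CPM) of tested genes, scaled by normalization factors, and differences are log2 fold changes with standard errors from edgeR, adjusted over all 10791 genes and called at an adjusted p under 0.05. Ogdh measured 247 and 267 CPM in control BFP positive cells at day 4, 60.8 CPM in both shOgdh346 libraries, and 51.5 and 52.3 CPM in those of shOgdh2081. Of 6 myeloid progenitor markers 5 had counts, and Cebpa was at 0 in every library. The T cell markers Cd3e, Cd4 and Cd8a were also at 0.

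How far reads can be assigned to each gene differed among the members. Prmt5 (ENSMUSG00000023110, GRCm38 chr14:54507187-54517525, minus strand) and Snrpb (ENSMUSG00000027404, chr2:130171414-130179403, minus strand) shared none of their 76-base windows, the length of a read, with transcripts of any other gene in the GENCODE M21 annotation. For Snrpd1, Snrpd2 (chr7:19149722-19153542), Snrpd3 (chr10:75517551-75537381), Snrpe (chr1:133603871-133610291), Snrpg (chr6:86371304-86379328) and Clns1a (chr7:97696634-97720796) the shared part was 1.71% to 9.71%, with genes such as Gm8186 for Snrpg and Snrpert for Snrpe. For Wdr77 (chr3:105959369-105970037) it was 28.7%, most of it with the overlapping transcript Gm42890 and some with Atp5f1, an overlapping protein-coding gene on the opposite strand. For Snrpf (chr10:93583029-93589706) it was 85.1%, of which most lay in Ccdc38, which overlaps it on the opposite strand. Snrpf also had few counts, from 2 to 56 in a library, and the sources used here do not say whether reads from such shared stretches were counted. Its level is therefore not comparable with those of the other Sm genes. The deposited coordinates of Snrpd1 differ from those in GENCODE M21, and those of the other 9 genes are the same.

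RefSeq promoter windows (GRCm38.p6, 250 bases before to 50 after the transcript start) were matched for 8 members, all but Snrpb and Snrpd1. The 3 motifs searched, each on both strands, were CACGTG, the E-box core that MYC binds, CCAAT, the NF-Y core, and CCGGAAG, an ETS core. CACGTG was in the windows of Clns1a and Wdr77, 2 of 8, and in 7.15% of all 32851 windows. CCAAT was in 4 of 8 (Prmt5, Snrpd3, Snrpf and Snrpg) and in 37.4% of all, and CCGGAAG in 3 of 8 (Clns1a, Snrpe and Snrpg) and in 8.86% of all. In Snrpe a pair of CCGGAAG matches, 1 on each strand, overlap. The upstream parts of the Prmt5 and Clns1a windows are printed because both methylosome genes fell in the knockdown and their windows hold different motifs; both end where the annotated gene begins, and capitals mark the motif matches. The Prmt5 stretch is chr14:54517526-54517720, minus strand, and the Clns1a stretch is chr7:97696407-97696633, plus strand.
Prmt5: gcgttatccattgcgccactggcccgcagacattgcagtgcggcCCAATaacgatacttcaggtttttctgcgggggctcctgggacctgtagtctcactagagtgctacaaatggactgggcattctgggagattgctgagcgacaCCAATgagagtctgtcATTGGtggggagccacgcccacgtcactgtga
Clns1a: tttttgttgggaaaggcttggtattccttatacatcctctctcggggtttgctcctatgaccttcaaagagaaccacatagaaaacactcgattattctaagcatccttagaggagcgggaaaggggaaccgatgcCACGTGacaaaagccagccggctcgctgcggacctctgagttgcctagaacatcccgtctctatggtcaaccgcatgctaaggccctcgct
The Prmt5 stretch shows 3 of its 4 CCAAT matches (at -206, -103 and -87 from the RefSeq transcript start), and the other lies at -46. The Clns1a stretch shows its CACGTG at -114, and its CCGGAAG matches, at -11 and 10, lie outside it. A match is a description of letters, not of a bound site.

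In Ogdh knockdown cells at day 4, all 3 methylosome genes and 6 of the 7 Sm genes fell against control BFP positive cells by the edgeR test, each by 15.4% to 27.6%. In all, 9 of the 10 members were called lower, where 8.36% of all tested genes were called lower. The median log2 fold change of the 10 was -0.31, against 0.00024 over all tested genes. Every fitted value was negative, from -0.47 for Snrpd2 to -0.24 for Prmt5, and Snrpf, at -0.24, was not called. Bulk RNA cannot tell fewer cells expressing a gene from less of its RNA per cell.

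**Figure D1:**
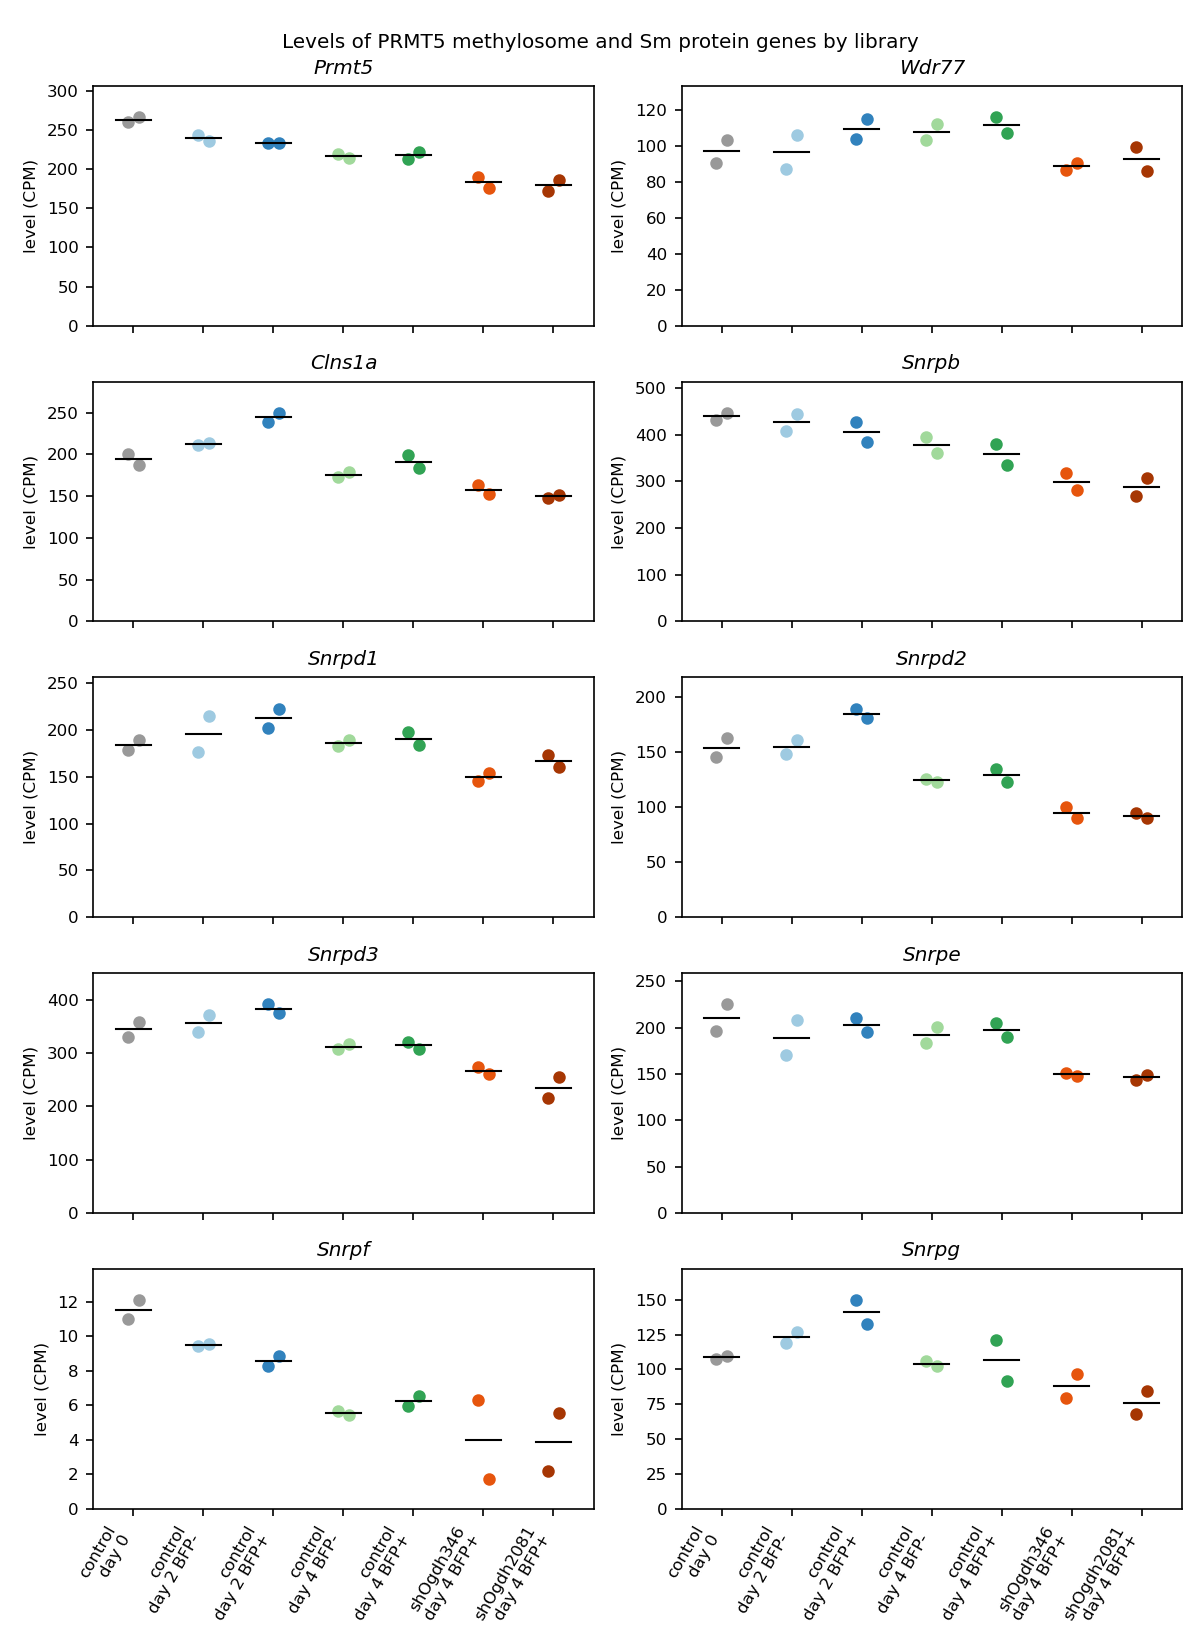
Level of each gene (CPM, axes from 0, a scale of its own in each panel) in each of the 14 libraries, by group; points are libraries and lines are means of 2. For Prmt5, Clns1a, Snrpb, Snrpd1, Snrpd2, Snrpd3 and Snrpe all 4 Ogdh libraries lie below all 10 control libraries.

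Prmt5, the methyltransferase itself, measured 213 and 222 CPM in control BFP positive cells at day 4, 190 and 176 CPM in the shOgdh346 libraries, and 172 and 186 CPM in the shOgdh2081 libraries. All 4 knockdown libraries were below both controls, and below all 10 control libraries, whose lowest was 213 CPM. The fall was the smallest of the called members (-0.24 ± 0.075, 15.4%, adjusted p = 0.0198). Wdr77, which holds PRMT5 in its active form, measured 116 and 108 CPM in these controls, 87.0 and 90.7 CPM in shOgdh346 cells, and 99.8 and 86.2 CPM in shOgdh2081 cells. It did not overlap the day 4 induced controls, but a day 2 BFP negative library, at 87.4 CPM, was as low as the knockdown libraries (-0.34 ± 0.096, 21.0% lower, adjusted p = 0.00932). Clns1a, the adaptor for Sm proteins, measured 199 and 183 CPM in the controls, 163 and 152 CPM in shOgdh346 cells, and 148 and 151 CPM in shOgdh2081 cells. Its knockdown libraries were the lowest of all 14 (-0.31 ± 0.078, 19.2%, adjusted p = 0.00341).

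Among the Sm genes whose proteins PRMT5 methylates, Snrpb (SmB) measured 381 and 335 CPM in control BFP positive cells at day 4, 318 and 282 CPM in shOgdh346 cells, and 269 and 307 CPM in shOgdh2081 cells. The knockdown libraries did not overlap any control, although the gap was small (-0.26 ± 0.074, 16.7%, adjusted p = 0.00903). Snrpd1 (SmD1, chr18:10617796-10628230) measured 198 and 184 CPM in controls, 145 and 154 CPM in shOgdh346 cells, and 173 and 161 CPM in shOgdh2081 cells. Its highest knockdown library lay just under the lowest control library of any day, 177 CPM (-0.29 ± 0.082, 18.5%, adjusted p = 0.00800). Snrpd3 (SmD3) measured 321 and 308 CPM in controls, 274 and 260 CPM in shOgdh346 cells, and 215 and 254 CPM in shOgdh2081 cells. It too was lower in every knockdown library than in any control library (-0.30 ± 0.073, 19.03%, adjusted p = 0.002045).

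Snrpd2, Snrpe, Snrpf and Snrpg encode the remaining ring proteins. Snrpd2 (SmD2) had the largest fall of the set, from 135.01 and 123 CPM in control BFP positive cells at day 4 to 99.9 and 89.9 CPM in shOgdh346 cells and 94.3 and 89.7 CPM in shOgdh2081 cells (-0.47 ± 0.089, 27.6%, adjusted p = 9.89e-05). Every knockdown library was under 100 CPM, and every control library of any day was at 123 CPM or above. Snrpe (SmE) fell from 205 and 189 CPM to 151 and 148 CPM in shOgdh346 cells and 143.7 and 149 CPM in shOgdh2081 cells (-0.41 ± 0.083, 24.8%, adjusted p = 0.000210). Its 4 knockdown libraries lay close together and below all controls, whose lowest was 170.0 CPM. Snrpg (SmG) measured 121 and 91.9 CPM in the controls, 79.3 and 96.7 CPM in shOgdh346 cells, and 68.0 and 84.3 CPM in shOgdh2081 cells. Although called (-0.40 ± 0.10, 24.1%, adjusted p = 0.00341), its groups overlapped, since a shOgdh346 library exceeded the lower control. Snrpf (SmF) had 19 and 14 counts in the controls, 36 and 2 counts with shOgdh346, and 2 and 26 counts with shOgdh2081, libraries of unlike depth. Its difference (-0.24, 95% interval -0.90 to 0.41) was not resolved at this depth.

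Summed over the 7 Sm genes, the level was 965 to 1074 CPM in the 4 Ogdh libraries, 1237 and 1368 CPM in the day 4 BFP positive controls and 1237 to 1580 CPM over all 10 controls. Summed over the 3 methylosome genes it was 419 to 440 CPM, against 496 to 598 CPM over all controls. For 8 of the 10 members all 4 knockdown libraries lay below both day 4 BFP positive controls, which held for 19% of all tested genes, and for 7 they lay below all 10 controls, which held for 8.1%.

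**Figure D2:**
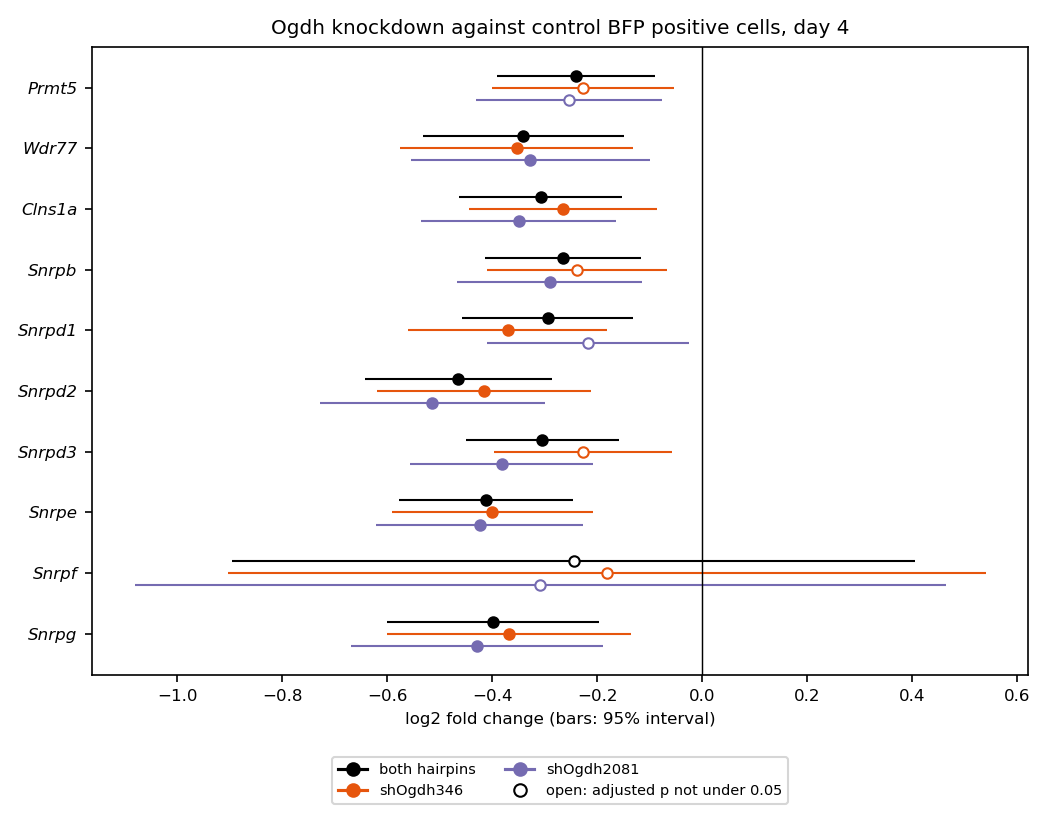
Log2 fold change of each gene at day 4 against control BFP positive cells, for both hairpins together and each alone; bars are 95% intervals, and open points were not called. The intervals of both hairpins together lie below 0 except for Snrpf.

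Each hairpin alone gave negative values for all 10 genes. With shOgdh346, 6 members were called lower (Wdr77, Clns1a, Snrpd1, Snrpd2, Snrpe and Snrpg), where 5.6% of all tested genes were, and the median over the 10 was -0.31. With shOgdh2081, 7 were called lower (Wdr77, Clns1a, Snrpb, Snrpd2, Snrpd3, Snrpe and Snrpg), where 5.53% of all tested genes were, and the median was -0.34. Prmt5 was called with neither hairpin alone (-0.23 and -0.25, adjusted p = 0.0768 and 0.0506). These comparisons share their control libraries. The test of the difference between hairpins called 0 of 10 members by edgeR and by DESeq2, with 0 at an unadjusted p under 0.05 by either tool, where 0.0834% of all tested genes were called. The largest differences between hairpins were Snrpd3 (shOgdh2081 lower by 0.16, 95% interval -0.33 to 0.02) and Snrpd1 (shOgdh2081 higher, 0.15, 95% interval -0.05 to 0.35). For these genes the data do not exclude a hairpin difference of up to that size.

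The calls rest on few libraries. Without control BFP positive replicate 1, edgeR called 0 of the 10 (7 at an unadjusted p under 0.05), with all values still negative (-0.38 to -0.15, smallest adjusted p = 0.0614), and the count over all genes fell from 1735 to 461. Without shOgdh346 replicate 1, Wdr77, Snrpd1 and Snrpg lost their calls, as did every called member with shOgdh346 alone. All 10 values for both hairpins together stayed negative, from -1.07 for Snrpf to -0.26. DESeq2 called 5 (Clns1a, Snrpb, Snrpd2, Snrpd3 and Snrpe), and 5 were called with all libraries thinned to equal depth (Clns1a, Snrpd2, Snrpd3, Snrpe and Snrpg). With control BFP negative cells of day 4 as the control, 8 were called lower, all but Snrpf and Clns1a (-0.18 ± 0.072, adjusted p = 0.0574), where 10.3% of all tested genes were called lower; calls over all genes in either direction were 2243 with this control. Summed markers of other cell types differed between the same groups. Mast cell markers, of which 3 of 4 had counts (Tpsb2 was at 0), summed to 118 to 136 CPM of the whole library in the Ogdh libraries, 58.3 and 65.2 CPM in control BFP positive cells at day 4, and 18.7 to 65.2 CPM over all controls. Erythroid markers, all 5 with counts, summed to 661 to 733 CPM, 563 and 584 CPM, and 563 to 766 CPM in the same order. Fibroblast markers, 3 of 4 with counts (Pdgfra was at 0), summed to 25.2 to 30.5 CPM, 36.65 and 40.5 CPM, and 20 to 40.5 CPM. Among them Col1a2, a collagen gene, fell (-0.72 ± 0.18, adjusted p = 0.00246 by edgeR), and Dcn was not called (0.066 ± 0.23, adjusted p = 0.884). The 5 myeloid progenitor markers with counts summed to 516 to 570.3 CPM, 494 and 512.5 CPM, and 470 to 593 CPM. These are sums of marker RNA, and their relation to the fall of the members was not tested.

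No member was called between BFP positive and BFP negative control cells at either day. Few genes were called at all at day 4, and 0 of 10 at day 2 is near the 6.23% called over all tested genes. These counts thus say little about the members in particular. At day 4, BFP positive against BFP negative control cells gave 0 of 10 calls by edgeR and by DESeq2 (0 at an unadjusted p under 0.05 by either), where 0.0741% of all tested genes were called. The fitted values ran from -0.068 for Snrpb to 0.17 for Snrpf, and the 95% intervals of the 9 genes other than Snrpf lay within -0.23 and 0.29. At day 2 the same comparison also gave 0 calls by both tools, where 6.23% of all tested genes were called. Of the 10 fitted values 7 were above 0 and 3 below, with a median of 0.10. Clns1a (0.20 ± 0.085) and Snrpd2 (0.26 ± 0.093), both higher in BFP positive cells, had an unadjusted p under 0.05 by edgeR (adjusted p = 0.174 and 0.0894), and DESeq2 also gave 2 members at that level. The difference between the days was called for 0 of 10 members by both tools (0 at an unadjusted p under 0.05), where 0.658% of all tested genes were called.

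Over time in control cells the members did not share a course. Prmt5 measured 260 and 266 CPM at day 0, 244 and 236 CPM (BFP negative) and 233 and 233 CPM (BFP positive) at day 2, and 220 and 214 CPM (BFP negative) and 213 and 222 CPM (BFP positive) at day 4. Its day 4 libraries were all below its day 2 libraries, and those all below day 0, while BFP positive and negative libraries of day 4 overlapped. Against day 0 it fell in BFP negative (-0.28 ± 0.078, adjusted p = 0.0148) and BFP positive cells (-0.27 ± 0.083, adjusted p = 0.0291) of day 4. Snrpb had a like order of means, from 432 and 447 CPM at day 0 to 381 and 335 CPM in BFP positive cells at day 4 (-0.29 ± 0.083, adjusted p = 0.0202), but each neighbouring pair of control groups overlapped. In BFP negative cells at day 4, 396 and 361 CPM, its fall was not called (-0.22 ± 0.079, adjusted p = 0.0698).

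Clns1a, Snrpd2, Snrpd3 and Snrpg had their highest levels in BFP positive cells at day 2, where no library overlapped another group's. Clns1a reached 239 and 249 CPM there against 200.5 and 187 CPM at day 0 (0.33 ± 0.087, adjusted p = 0.00521). Snrpg reached 150 and 133 CPM against 108 and 110 CPM (0.40 ± 0.11, adjusted p = 0.00796). Snrpd2 reached 189 and 181 CPM against 145 and 163 CPM (0.27 ± 0.095, adjusted p = 0.0356), and by day 4 in BFP negative cells, at 125.8 and 123 CPM, it was below day 0 (-0.31 ± 0.089, adjusted p = 0.0198). Snrpd3 had 391 and 375 CPM at day 2 in BFP positive cells against 330 and 358 CPM at day 0, which was not called (0.16 ± 0.082, adjusted p = 0.181). These 3 calls compare with 9.1% of all tested genes called higher at day 2 in BFP positive cells.

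Snrpd1, Snrpe and Wdr77 gave no call against day 0 in any control group, and Snrpf rested on few counts. Snrpd1 ranged from 177 to 223 CPM and Snrpe from 170 to 225 CPM over the 10 control libraries, with every neighbouring pair of control groups in their orders overlapping, and neither was called against day 0. Wdr77 ranged from 87.4 to 116 CPM, and all 7 groups overlapped their neighbours in its order. It was the member least like the rest: over the 7 group means its log2 level had a Pearson r of 0.56 with the mean of the other 9, whose values ran from 0.87 (Snrpd1) to 0.98 (Snrpd2), as a description of points that share libraries. Snrpf, on few counts, had 31 counts in each day 0 library, the higher of them at 12.1 CPM, and measured 5.69 and 5.43 CPM in BFP negative cells at day 4 (-1.06 ± 0.27, adjusted p = 0.00747), and 5.95 and 6.53 CPM in BFP positive cells, where it was not called (-0.89 ± 0.32, adjusted p = 0.0742). Given the overlap of Snrpf with Ccdc38, the source of these reads is uncertain.

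In counts, BFP negative cells gave 0 calls at day 2 by edgeR and by DESeq2 (0 at an unadjusted p under 0.05 by either), where 10.3% of all tested genes were called, and 3 lower at day 4 (Prmt5, Snrpd2 and Snrpf), where 4.19% were. BFP positive cells gave 3 higher at day 2 and 2 lower at day 4 (Prmt5 and Snrpb), where 3.65% of all tested genes were called lower. The day 0 comparisons share the day 0 libraries, and their calls are fragile: without day 0 replicate 2 no member was called lower at day 4 in either population, and without day 0 replicate 1 the counts were 1 (BFP negative) and 0 (BFP positive). Leaving out BFP positive replicate 2 of day 4, or BFP negative replicate 2 of day 4, also left 0 calls in the comparison it belongs to, and leaving out BFP positive replicate 1 of day 4 left 1. At day 2 the 3 calls became 1 without day 0 replicate 1 or without BFP positive replicate 1, and 1 by DESeq2.

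**Figure D3:**
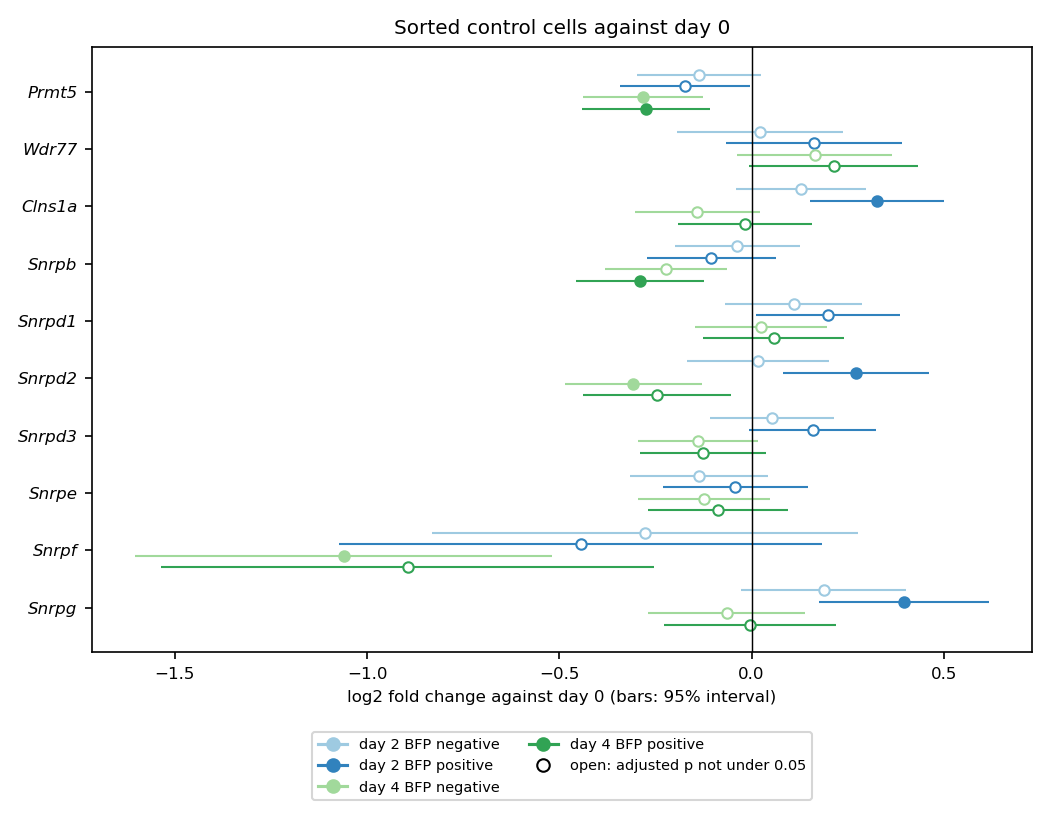
Log2 fold change of each gene in sorted control cells against day 0, by day and BFP; bars are 95% intervals and open points were not called. Filled points lie right of 0 for Clns1a, Snrpd2 and Snrpg at day 2 in BFP positive cells and left of 0 for Prmt5, Snrpb, Snrpd2 and Snrpf at day 4.

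Per kilobase of the deposited transcript length, the order of levels at day 0 was Snrpb (222 CPM per kilobase), Snrpd1 (220), Snrpe (153.5), Snrpd3 (100.02), Snrpg (69.2), Prmt5 (66.4), Snrpd2 (58.8), Clns1a (50.3), Wdr77 (20.1) and Snrpf (13.4). Only Snrpb and Snrpd1 overlapped among neighbours in this order. How these lengths were taken is not stated. They run from 837 bases for Snrpd1 to 4841 bases for Wdr77, so the order depends on them.

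Values for other genes of the pathway, grouped by role in lists drawn up with earlier results of these data known, are given here for the same Ogdh knockdown comparison. Over all tested genes 8.36% were called lower in it, so 0 or 1 call among 8 genes is near that share. Strap, a subunit that binds the SMN complex, fell (-0.25 ± 0.072, adjusted p = 0.0107), and it was the only call among 8 tested genes of that complex (median -0.027, Smn1 itself -0.02). Of 8 genes for snRNA export, the cap and import, 0 were called by edgeR and by DESeq2 (0 at an unadjusted p under 0.05 by either), and Ncbp2, of the cap-binding complex, had the smallest p (-0.17 ± 0.086, adjusted p = 0.187). Of 10 Lsm genes, most of whose products form Sm-like rings on U6 RNA and on mRNA under decay, 4 fell: Lsm5 (-0.47 ± 0.17), Lsm6 (-0.37 ± 0.10), Lsm1 (-0.33 ± 0.12) and Lsm3 (-0.33 ± 0.11), with a median of -0.26 over the list. DESeq2 called 0 of the 10, with 1 at an unadjusted p under 0.05.

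Of 15 genes for proteins particular to the U1 and U2 particles, 5 fell and 10 were not called (median -0.20). The largest falls among them were Snrpb2 (-0.39 ± 0.11), Sf3b4 (-0.33 ± 0.12), Sf3b3 (-0.31 ± 0.065) and Snrpa1 (-0.30 ± 0.11). Of 16 genes for the U4/U6 and U5 particles, 6 fell and 10 were not called, with all 16 values below 0 (median -0.18). Eftud2, a GTPase of the U5 particle, had the lowest value (-0.39 ± 0.074, adjusted p = 7.55e-05), followed by Prpf31 (-0.36 ± 0.093), Snu13 (-0.35 ± 0.11) and Snrnp27 (-0.33 ± 0.12). Over all tested genes, 49.9% of values were below 0. DESeq2 called 1 of the 15 and 3 of the 16.

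**Figure D4:**
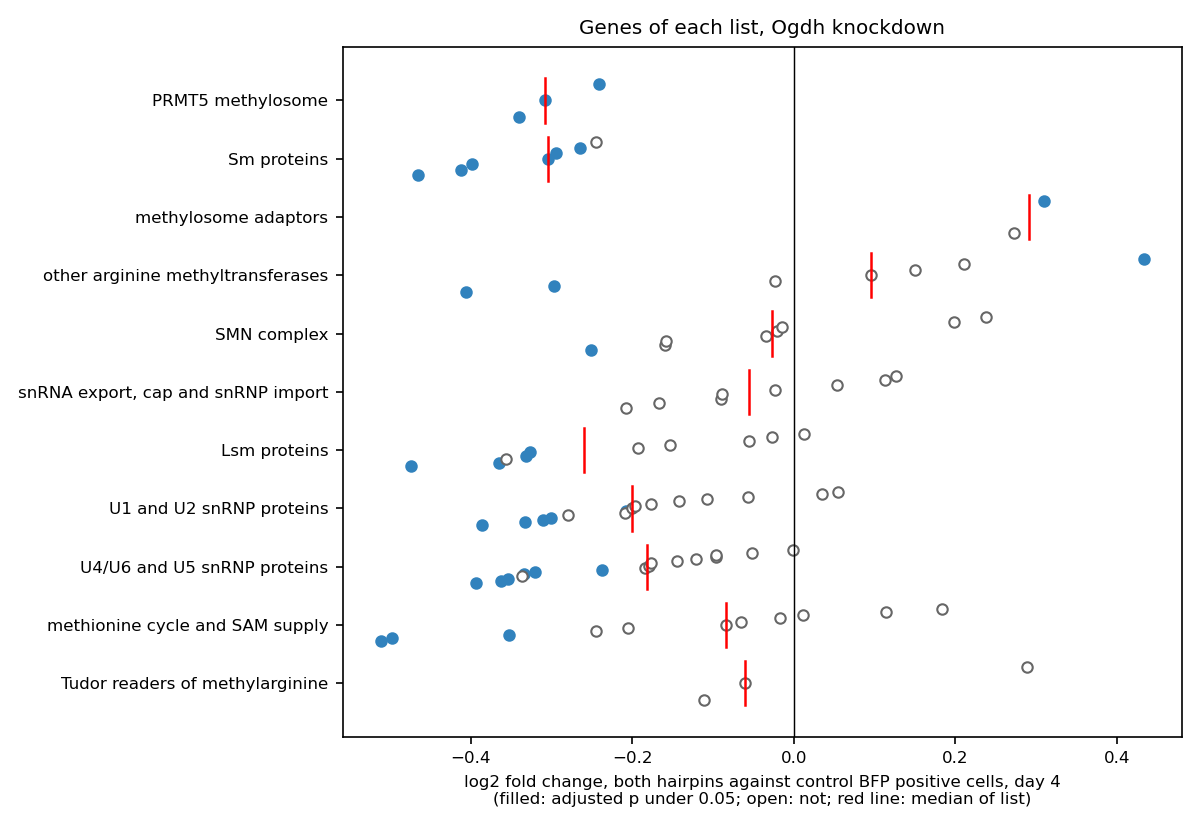
Log2 fold change in Ogdh knockdown (both hairpins against control BFP positive cells, day 4) of each tested gene by list; filled points were called and red lines are list medians. The medians run from -0.31 for the methylosome to 0.29 for its 2 adaptors.

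Not all partners of PRMT5 were lower. Riok1, an adaptor that competes with CLNS1A for PRMT5, rose (0.31 ± 0.11, adjusted p = 0.0388), where 7.72% of all tested genes were called higher, and the adaptor Coprs had 0.27 ± 0.21 (adjusted p = 0.404). Of 7 tested genes for other arginine methyltransferases, Carm1 (-0.41 ± 0.099, adjusted p = 0.00237) and Prmt1 (-0.30 ± 0.081, adjusted p = 0.00695), which make asymmetric dimethylarginine, fell, and Prmt9, which like PRMT5 makes the symmetric form, rose (0.43 ± 0.15, adjusted p = 0.0322). The other 4 were not called. DESeq2 kept the calls of Carm1 and Prmt1, but it called none of Riok1, Coprs and Prmt9. With libraries thinned to equal depth, only Carm1 of these genes kept its call. Among 11 genes of the methionine cycle and SAM use, Srm (-0.51 ± 0.073), Sms (-0.50 ± 0.11) and Mtap (-0.35 ± 0.12) fell. Srm and Sms make the polyamines spermidine and spermine, and Mtap salvages methylthioadenosine, the by-product of that pathway and an inhibitor of PRMT5. Mat2a, which makes SAM, was at -0.017 ± 0.068. Of 3 Tudor proteins that can read methylarginine, 0 were called by edgeR and by DESeq2 (1 and 0 at an unadjusted p under 0.05), and Tdrd3 had the smallest p (0.29 ± 0.14, adjusted p = 0.141). Snrpn, the Sm paralog of Snrpb, had 0 counts in all 14 libraries, and Myc was at 0.064 ± 0.074 (adjusted p = 0.613). Of the 20 called genes named here from these lists, 3 (Sf3b3, Eftud2 and Srm) were called without control BFP positive replicate 1 and 8 by DESeq2, and all 20 kept their sign in both.

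By pattern over the 7 group means of log2 CPM, the genes most like the mean of the 10 members were Dscc1 (Pearson r = 0.996), Ppa1 (0.994), Sipa1l3 (0.991), Snrnp40 (0.99) and Mrpl20 (0.99), among 7477 other genes with at least 20 CPM. Dscc1 loads clamps in sister chromatid cohesion, Ppa1 is a cytosolic pyrophosphatase, Snrnp40 is a U5 particle protein and Mrpl20 is a protein of the mitochondrial ribosome. The 7 points share libraries across genes, so these values rank genes only.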

How the data were processed

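PolyA RNA was sequenced as single-end 76-base reads, per the labels' protocols. The deposited table gives raw read counts for each gene and library, and a transcript length. Per the labels' protocols, reads were trimmed with Trimmomatic, aligned with STAR to hg19 and counted with HTSeq into an RPKM matrix; the submitters' processing notes list mm10 and GRCm38 with featureCounts 1.6.3, STAR 2.6.1a and Trimmomatic 0.36. The identifiers are mouse Ensembl, and 96.36% of 53274 genes shared with GENCODE M21 have its GRCm38 coordinates, so positions are on that build. Neither strand use nor treatment of multiply mapped reads is given in the sources used here.

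Each column was assigned by the well code in its library name. Genes were filtered with filterByExpr, leaving 10791, normalized with TMM factors (0.968 to 1.01) and compared by edgeR's two-sided quasi-likelihood F test (version 4.0.16, R 4.3.3) in 1 model of 14 libraries with group as the only term and Benjamini-Hochberg adjustment over all tested genes. Intervals are 95%. With 2 libraries a group, the smallest p of an exact permutation test is 0.333, and it was left out. DESeq2 1.42.0, other factors, no filter, blocks, thinning and leaving out libraries were alternatives. The code was tested on simulated data. Replicates of a group differed by more than counting noise (chi-square per degree of freedom 1.16 to 2.71). Shared windows are exact 76-base matches, on either strand, between GENCODE M21 transcripts of different genes.

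Members and lists were chosen with earlier results of these data known. Named are all members and, per list, up to 4 genes called in the knockdown with the largest change, or the gene with the smallest p; Snrpn and Myc always; and the 5 genes most like the members over group means.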

Additional observations from a re-analysis of the deposited data

How the results depend on the processing

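The number of members called in Ogdh knockdown (both hairpins, 9) was 5 with DESeq2, 5 with libraries thinned and 0 to 9 with 1 library left out; it was 9 with the replicate block, with a block by library number, without a filter, with other factors and with only the compared groups fitted. For shOgdh346 (6) it was 3 with DESeq2, 2 thinned and 0 to 8 with 1 library left out, the 0 without control BFP positive replicate 1 or shOgdh346 replicate 1. For shOgdh2081 (7) it was 4 with DESeq2, 4 thinned, 3 without the shallower library of each hairpin and 0 to 8 with 1 left out (0 without control BFP positive replicate 1, 4 and 3 without shOgdh2081 replicates 1 and 2). Against day 0, BFP negative cells of day 4 (3) gave 1 with DESeq2, 0 thinned and 0 to 4 with 1 left out. BFP positive cells of day 4 (2) gave 1 with DESeq2, 0 thinned, 4 with only the compared groups fitted and 0 to 2 with 1 left out. BFP positive cells of day 2 (3) gave 1 with DESeq2 and 1 to 3 with 1 left out. The other comparisons gave 0 under every alternative that was run. With only the compared groups fitted, shOgdh346 gave 9 and shOgdh2081 gave 8, and without a filter they gave 4 and 6. With 1 library of a group left out, the lone library is assumed to vary like the other groups, and the cause of lost calls was not tested. Over all genes, the knockdown gave 1735 calls, 662 with DESeq2, 705 thinned, and 461 and 936 without control BFP positive replicates 1 and 2; the shOgdh346 count of 1206 was 392 with DESeq2, 436 thinned and 1814 with only the compared groups fitted, and the shOgdh2081 count of 1247 was 442 with DESeq2 and 508 thinned. Between the hairpins, 9 genes were called, 35 with only the compared groups fitted and 0 with DESeq2. Against day 0, counts of 1112 (day 2) and 866 (day 4) in BFP negative and 1928 and 767 in BFP positive cells were 293, 272, 755 and 281 with DESeq2. Between BFP populations, counts of 672 (day 2) and 8 (day 4) were 190 and 2. Of 2450 member values under alternatives, 125 lost and 26 gained a call, and no called value changed sign. The replicate numbers do not pair the libraries by their values: same-numbered libraries of 21 pairs of groups had deviations from group means correlated at -0.082 to 0.15, 2 of them over 0.1. Depth limits Snrpf most, with 2 counts in the shallower library of each Ogdh hairpin.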
